A study of Mus musculus with 15 samples.

Results

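Quadriceps muscle of adult mouse offspring was compared between 2 groups whose dams did not exercise: in one the mother had eaten a high-fat diet, in the other the father had. The 6 libraries are all those that carry the group label MHS (3 libraries) or PHS (3 libraries), of 15 libraries in the series. They were described over the 13499 genes with a mean normalized count of at least 10 over all 15 libraries, and the control libraries enter only that filter. A normalized count is the number of reads of a gene divided by a size factor of the library. Differences are given as log2 of the normalized count plus 1, maternal minus paternal, a scale that understates the change of low genes.

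All mice were C57BL/6, a common inbred laboratory strain, and the labels name no modified allele. In the maternal group, females aged 8 weeks ate a diet with 60% fat for 6 weeks, were mated with a lean male aged 14 weeks, and spent pregnancy in a cage with a locked running wheel. In the paternal group, males aged 8 weeks ate the same diet for 6 weeks and were mated with lean females aged 14 weeks, which were kept in the same way. The 2 exercised groups, with 3 libraries each, had parents on the same diets but dams with a turning wheel. They are used here for the spread between libraries and for the same comparison in other animals. From the day after birth all offspring had chow and no wheel, and muscle was taken at 10 months of age. The maternal and paternal groups belonged to 2 breeding studies run in parallel, so the parent and the breeding study cannot be told apart. Xist, the RNA that silences an X chromosome in females, stood at 893 to 3188 normalized counts in the 6 libraries, and the other 4 genes of the sex-linked list, all on the Y chromosome, fell under the mean of 10. The labels give neither the litters nor the sex of the offspring, so the p-values cover only how much these samples vary. Below, "maternal" and "paternal" mean the groups with sedentary dams, and values are given in the order of replicates 1, 2 and 3.

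Skeletal muscle takes up and burns a large part of the body's glucose and fat, and its fibres differ in the myosin they carry and in how much they rely on mitochondria. Like nearly all nucleated cells, muscle cells can show fragments of their own proteins on MHC class I molecules, which cytotoxic T cells read. In that pathway the immunoproteasome cuts proteins into peptides, the TAP transporter carries them into the endoplasmic reticulum, tapasin and its relatives help to load them, and a heavy chain with beta-2 microglobulin displays them at the surface. Interferons raise many of these genes together.

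Libraries held 18457663 to 26981745 reads. The muscle label was checked against 13 muscle identity genes, such as Acta1 (skeletal actin) and Ckm (creatine kinase), and none of them was at 0 in any of the 12 libraries. Maternal replicate 3 had 17581 genes with at least 1 read, and the other 5 libraries had 19194 to 20771. Hepatocyte genes, such as Alb (albumin), took 25.1, 5375 and 679 CPM (a count scaled to a common library total) in the maternal libraries and 337, 18.7 and 29.2 in the paternal ones, against 23.9 to 52.7 in the exercised groups. Replicate 3 of both groups stood apart: the median gene differed by a log2 of 0.154 between maternal replicates 1 and 2 but by 0.303 and 0.305 from replicate 3, and by 0.173, 0.380 and 0.313 in the paternal group. Paternal replicate 3 differed by 0.188, 0.222 and 0.241 from maternal replicates 1, 2 and 3, less than from either library of its own group. The 3 maternal sample titles begin with the same code, and no paternal title begins with it. What the code stands for is not given, so among the 6 libraries it and the group cannot be told apart. It also begins the title of replicate 3 of the exercised maternal group. That library's mean log2 over the class I genes described below (8.24) was under those of the 3 maternal sedentary libraries (8.39 to 8.56). The same mean was above those of the other exercised libraries (7.79 to 8.15), and the part of the code in these values was not tested.

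**Figure D1:**
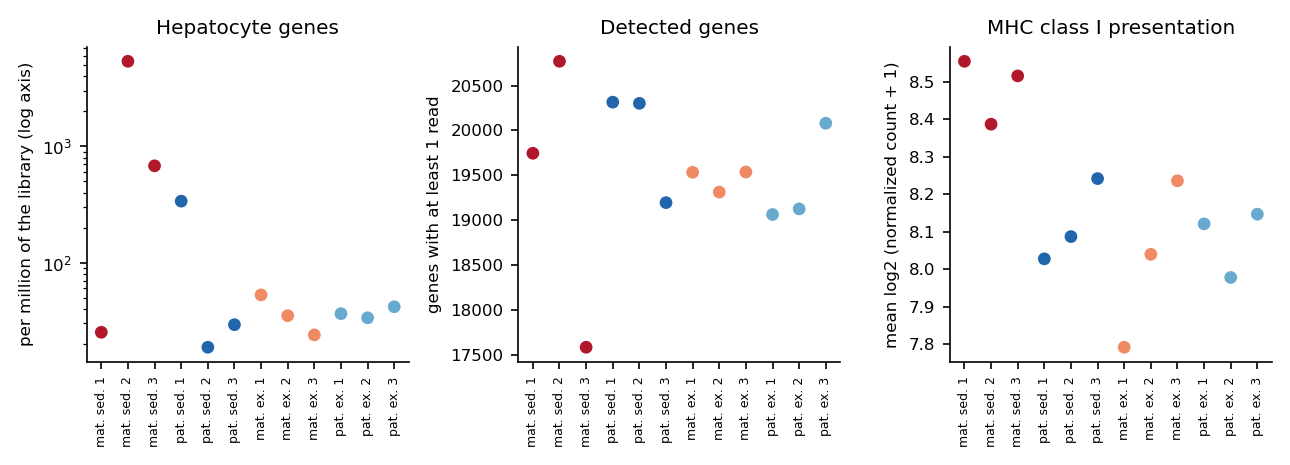
Each point is 1 of the 12 high-fat libraries (mat., maternal; pat., paternal; sed., sedentary dam; ex., exercised dam). Left, hepatocyte genes in CPM on a log axis, highest in maternal sedentary replicate 2 (5375); middle, genes with at least 1 read, lowest in maternal sedentary replicate 3 (17581); right, the mean log2 normalized count (plus 1) of the 22 MHC class I presentation genes, where the 3 maternal sedentary libraries lie above the 9 others.

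The comparison asked whether muscle of the offspring differed by which parent had eaten the high-fat diet when the dam did not exercise. No gene passed the test: with limma, 0 of 13499 genes (0%) had a Benjamini-Hochberg adjusted p under 0.05, and the lowest adjusted p was 0.663. At an unadjusted p under 0.05 there were 726 genes (5.38% of those tested), 448 higher in the maternal group (3.32%) and 278 lower (2.06%). With libraries scaled to their totals, which shifts the median of all genes from 0.01 to -0.11, this split turned to 140 higher among 855 genes. On the reads, edgeR's quasi-likelihood test, DESeq2 and limma voom also called 0 genes, and found 933, 890 and 684 with an unadjusted p under 0.05. The values of the 2 groups did not overlap for 969 genes (7.18%), of which 539 were higher (3.99%) and 430 lower (3.19%) in the maternal group. The typical difference was small: the median absolute log2 difference was 0.184 beside a median standard error of 0.195, and 89.4% of genes lay within 0.5 either way. Maternal means were higher for 6978 genes (51.7%). No gene had at least 10 reads in each library of one group and 0 in all libraries of the other. With 3 against 3 libraries an exact permutation test of a single gene cannot go below p = 0.1.

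Since no gene passed, the groups below are described by their values. Genes of MHC class I presentation had higher means in the maternal group in most members and in all 3 maternal libraries. Of 22 genes of this list, all of which were tested, 19 had a higher maternal mean, and the median log2 difference was 0.41, against 0.01 over all genes. In 11 of the 22 all 3 maternal values lay above all 3 paternal values, which held for 3.99% of all genes, and in none did they lie below. This list and the others were chosen with earlier results of these data known, so setting them beside all genes describes and does not test. An unadjusted p under 0.05 in limma was reached by 10, all higher, and an adjusted p under 0.05 by 0. Over all genes 3.32% were higher at an unadjusted p under 0.05. Summed over the list, the normalized counts were 14857, 15019 and 15814 in the maternal libraries and 11239, 11911 and 12702 in the paternal ones. Muscle is a mixture of cell types, and more RNA per cell cannot be told apart from more cells of a type that expresses the pathway.

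The heavy chains come first. H2-K1, a classical class I heavy chain (ENSMUSG00000061232.15, chromosome 17, 33996017 to 34000347, GRCm38), stood at 2654, 3040 and 3301 normalized counts in the maternal libraries and at 1617, 1916 and 2290 in the paternal ones. Even the lowest maternal library was above the highest paternal one. The log2 difference was 0.64 ± 0.14 (SE), the smallest unadjusted p of the list (0.000619). H2-D1, the other classical heavy chain in this strain, stood at 2548, 2446 and 3287 in maternal and 1644, 1828 and 2422 in paternal muscle. Its groups were separated by only a narrow gap, between maternal replicate 2 and paternal replicate 3. H2-T23, which encodes the non-classical molecule Qa-1 that natural killer cells read, stood at 402, 454 and 321 against 204, 221 and 280, a log2 difference of 0.74 ± 0.18. B2m, the beta-2 microglobulin chain shared by all class I molecules (chromosome 2, 122147686 to 122153083), stood at 1288, 1616 and 1213 against 1098, 1070.5 and 1046. The paternal values of B2m were close together, and the maternal ones ranged above them. H2-Q4, H2-Q6, H2-Q7 and H2-T22 had higher maternal means but overlapped, and H2-T10 had a log2 difference of -0.01. Heavy-chain genes are near copies of each other, so how reads were divided among them is uncertain.

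Among the genes that supply and load peptides, Tap1 (chromosome 17, 34187553 to 34197225), one subunit of the peptide transporter, stood at 298, 199 and 193 in maternal and 132, 125 and 162 in paternal libraries, a log2 difference of 0.69 ± 0.25. The partner subunit gene Tap2 stood at 280, 222 and 365 against 190, 192 and 198. Both subunits were thus separated between the groups, with maternal replicate 1 the highest for Tap1 and replicate 3 for Tap2. Tapbp (tapasin) averaged 917 ± 38.3 (SD, n = 3) against 699 ± 88.0, and Tapbpl, a tapasin relative that edits peptides, 105 ± 9.76 against 78.4 ± 16.6; neither overlapped. Psmb9, an immunoproteasome catalytic subunit (chromosome 17, 34181987 to 34187764), stood at 115, 87.0 and 86.4 against 53.5, 50.9 and 63.0, a log2 difference of 0.77 ± 0.28. Psmb10 averaged 243 ± 27.6 against 192 ± 24.2 without overlap, whereas Psmb8 at 133, 104 and 145 overlapped with 86.4, 94.5 and 108. The Psmb9 and Tap1 gene models overlap at their starts, and no source used here says whether the counting used strand. The means of chaperones and a trimming enzyme were close in the 2 groups: Calr (calreticulin) had a log2 difference of 0.01, Erap1, which trims peptides, -0.09, and Pdia3, a disulfide isomerase of the loading complex, -0.16.

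Nlrc5, the transactivator of class I genes (chromosome 8, 94434356 to 94527272), stood at 208, 139 and 152 normalized counts in the maternal libraries and 66.8, 114 and 107 in the paternal ones. Its log2 difference of 0.80 ± 0.24 was the largest of the list. Across the 22 genes, maternal replicate 1 lay above all paternal values in 15, replicate 2 in 14 and replicate 3 in 16. The share of all genes for which this held in a single library was not computed. Paternal replicate 3 was the highest paternal library in 15 of 22. Leaving out each library in turn left the list median between 0.31 and 0.52. Without the 3 libraries that had over 100 hepatocyte CPM it was 0.31, with 19 of 22 still higher. In that fit the log2 difference went from 0.64 to 0.34 for H2-K1 and from 0.69 to 1.06 for Tap1. The maternal group keeps only replicate 1 there, assumed to vary like the others. With libraries scaled to their totals the list median was 0.29, with 17 of 22 higher, where the median of all genes was -0.11.

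**Figure D2:**
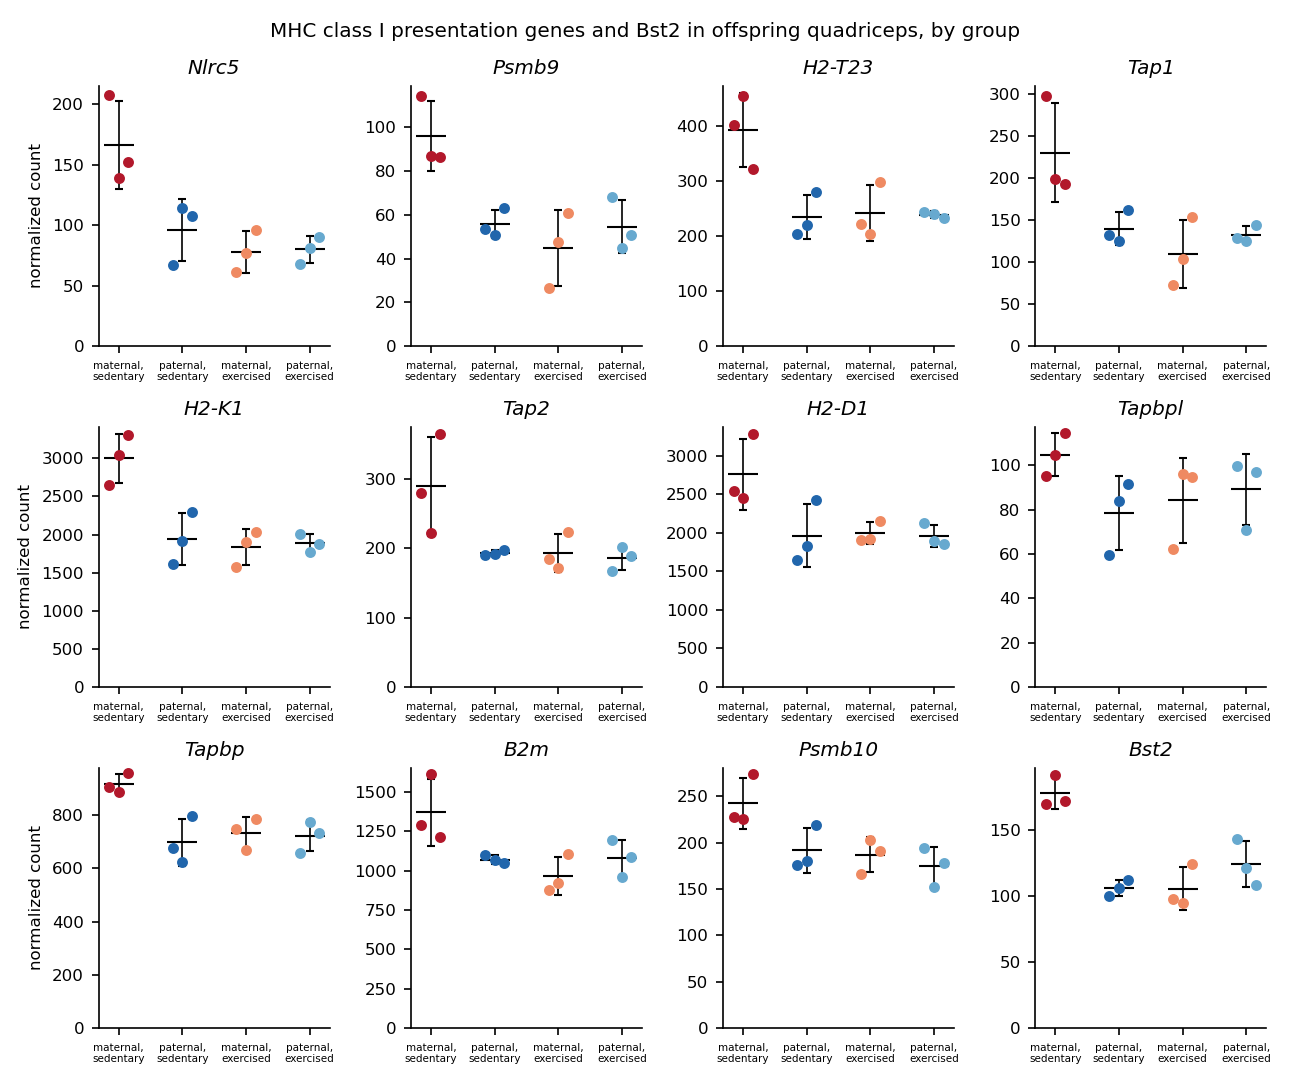
Normalized counts of 11 MHC class I presentation genes whose sedentary groups did not overlap, and of Bst2, in 4 groups of 3 libraries; points are libraries, the horizontal line is the mean and the bar the SD, and each axis starts at 0. In every panel the 3 maternal sedentary points (left column) lie above the 3 paternal sedentary points, as for Psmb9 with 86.4 to 115 against 50.9 to 63.0.

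Interferon-responsive genes outside this pathway were split. Bst2 (tetherin, which holds budding virus at the cell surface; ENSMUSG00000046718.8, chromosome 8, 71534255 to 71537456) stood at 170, 192 and 172 in maternal and 99.8, 106 and 112 in paternal muscle. The groups were far apart relative to their spread, with a log2 difference of 0.74 ± 0.16 and an unadjusted p of 0.000442, and the adjusted p was still 0.663. Of 30 tested genes of the type I interferon list, 20 had higher maternal means, the median was 0.16, and 8 were higher without overlap, which held for 3.99% of all genes: Bst2, Irf7, Irf9, Cmpk2, Rsad2, Oasl2, Ifi27l2a and Isg15. The median was 0.30 (27 of 30 higher) without maternal replicate 3 and 0.03 (17 of 30) with libraries scaled to their totals. That scaling moved the median of all genes to -0.11. Irf7, a transcription factor that amplifies the interferon response, stood at 82.0, 109 and 78.9 against 49.0, 54.1 and 63.0, and Irf9, a subunit of the factor ISGF3, at 149, 180 and 116 against 92.7, 108 and 111. Isg15, a ubiquitin-like modifier, was low in all 6 libraries, at 23.3, 19.3 and 18.4 against 13.4, 12.1 and 17.7. Other well-known members of the list overlapped, and Ifit1 averaged 20.1 in both groups. The log2 difference was -0.06 for Ifih1, a sensor of viral RNA, and -0.39 for Eif2ak2, the RNA-activated kinase PKR.

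Guanylate-binding proteins, GTPases that attack vacuoles of intracellular microbes, had 5 of 8 tested genes higher and a median of 0.43. That median was 0.14 without maternal replicate 1, 0.68 without maternal replicate 3 and 1.03 without the libraries over 100 hepatocyte CPM. In the last of these fits only replicate 1 is left of the maternal group. Gbp3 stood at 204, 134 and 92.9 in maternal libraries and at 76.6, 76.8 and 76.8 in paternal ones. Gbp4 stood at 635, 323 and 243 against 306, 257 and 183, and Gbp10 at 55.9, 37.8 and 32.4 against 64.2, 73.5 and 68.9. Gbp3 was thus higher without overlap, Gbp4 overlapped and Gbp10 was lower without overlap; the family holds near copies, and the division of reads among them is uncertain. In this family maternal replicate 1 was the highest of the maternal libraries for all 3 of these genes. The immunity-related GTPases had a median of 0.07 over 10 genes, none of them without overlap, and Iigp1 averaged 210 ± 91.2 against 132 ± 32.5. Of 11 interferon gamma signalling genes 7 were higher, with a median of 0.13 that was -0.015 without maternal replicate 3.

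Promoters of 4 of these genes are shown because class I and interferon genes can be bound through short interferon-response motifs near their start. They come from RefSeq on GRCm38.p6, run from 250 bases before to 50 after the start, 5′ to 3′ on the strand of the gene, and capitals mark matches to the interferon-stimulated response element core (TTTC, any 2 bases, TTTC) or the gamma-activated site TTCNNNGAA on either strand, which can overlap each other. The regions are chr8:71537423-71537722 (minus strand) for Bst2, chr2:122147437-122147736 (plus) for B2m, chr17:36032652-36032951 (minus) for H2-T23 and chr17:34187281-34187580 (minus) for Psmb9.
Bst2: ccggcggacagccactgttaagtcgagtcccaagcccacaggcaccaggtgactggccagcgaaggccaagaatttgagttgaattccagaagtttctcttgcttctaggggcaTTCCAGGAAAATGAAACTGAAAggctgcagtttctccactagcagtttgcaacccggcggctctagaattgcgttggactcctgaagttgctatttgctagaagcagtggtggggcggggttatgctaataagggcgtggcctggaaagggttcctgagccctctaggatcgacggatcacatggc
B2m: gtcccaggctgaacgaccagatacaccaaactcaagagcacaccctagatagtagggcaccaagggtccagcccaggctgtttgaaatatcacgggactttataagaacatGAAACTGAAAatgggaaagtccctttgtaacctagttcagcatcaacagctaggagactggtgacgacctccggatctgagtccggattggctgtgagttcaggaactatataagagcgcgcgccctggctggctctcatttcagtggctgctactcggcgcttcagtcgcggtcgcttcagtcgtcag
H2-T23: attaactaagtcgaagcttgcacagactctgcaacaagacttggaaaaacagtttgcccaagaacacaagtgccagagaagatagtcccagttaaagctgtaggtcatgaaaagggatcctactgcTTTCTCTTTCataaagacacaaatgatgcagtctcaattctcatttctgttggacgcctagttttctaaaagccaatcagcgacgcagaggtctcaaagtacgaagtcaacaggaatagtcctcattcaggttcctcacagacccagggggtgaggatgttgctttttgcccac
Psmb9: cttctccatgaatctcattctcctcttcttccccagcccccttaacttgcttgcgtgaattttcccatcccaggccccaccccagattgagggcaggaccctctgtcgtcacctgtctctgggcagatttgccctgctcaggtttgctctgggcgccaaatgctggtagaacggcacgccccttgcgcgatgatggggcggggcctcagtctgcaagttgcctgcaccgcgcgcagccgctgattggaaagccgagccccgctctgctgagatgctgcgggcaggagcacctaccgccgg
The Bst2 promoter holds 2 overlapping response elements and a gamma-activated site that reaches into them, B2m and H2-T23 hold the response element, and the Psmb9 window holds neither. Psmb9 shares 275 of its bases with the promoter of Tap1, which is read in the opposite direction. Of the 22 class I genes 18 were in the promoter table, and 5 of them held the response element (27.8%), against 3.44% of 32851 promoters, or 3.99% of 27025 genes. These were B2m, Erap1, H2-T22, H2-T23 and Psme1. TTCNNNGAA was found in 1 (Psmb8, 5.6%), against 8.3% of promoters and 9.55% of genes. Erap1, H2-T22 and Psme1 hold the first motif and overlapped between the groups, and a match describes these letters only.

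Markers of cells that could bring class I RNA were looked at next. Macrophage and MHC class II genes (18 of 22 tested) had higher maternal means in 15, with a median of 0.41, but none was without overlap. Their summed counts were 1335, 2483 and 2080 in maternal and 1457, 1098 and 2046 in paternal libraries. Maternal replicate 1 was below paternal replicate 1 in this sum, and it lay above all paternal libraries in the class I sum. Csf1r, the receptor that macrophages need to survive, stood at 78.3, 211 and 138 against 70.4, 70.3 and 95.5, and Cd74, the class II invariant chain, at 354, 433 and 523 against 293, 231 and 479. Without the 3 libraries over 100 hepatocyte CPM the macrophage median was -0.28, where the class I median was 0.31. That fit keeps only replicate 1 of the maternal group. Of 20 T, NK and B cell markers 3 reached a mean of 10, and 3 to 9 members were at 0 in a maternal library and 7 to 8 in a paternal one. Their sum was 510 to 2162 in maternal and 527 to 846 in paternal libraries, most of it Ighm, the IgM heavy chain. The 4 tested neutrophil and mast cell markers had a median of 0.56, and their sums were 72.7 to 95.1 against 58.1 to 72.7. The 5 tested erythrocyte genes were all higher, with a median of 0.83 and overlap throughout: Hbb-bs (beta globin) stood at 447, 1151 and 1043 against 675, 385 and 508. Without the libraries over 100 hepatocyte CPM that median was 0.034 and Hbb-bs had 0.017. Tpsb2, a mast cell tryptase, was the only marker of these immune lists without overlap. The part of these cells in the class I values was not tested.

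All 37 tested hepatocyte genes had higher maternal means, with a median of 3.80, and none was without overlap. Alb stood at 61.5, 39506 and 4225 normalized counts in maternal and 2074, 36.4 and 12.8 in paternal libraries, so the list median follows 3 libraries. Serpina1a, an antitrypsin gene of the liver, had the smallest p of the list, with a log2 difference of 4.45 ± 1.64. These genes are kept out of the named genes that follow, but other genes abundant in liver are not.

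The 12 genes with the largest higher and the 12 with the largest lower maternal values were taken from 254 genes (146 higher, 108 lower) with an unadjusted p under 0.05, a mean of at least 50 in either group and no overlap, which are conditions of the choice and not findings. Depp1, a FoxO target that acts in peroxisomes and autophagy (chromosome 6, 116650609 to 116652794), stood at 9819, 9479 and 8931 in maternal and at 3683, 2078 and 7292 in paternal muscle. The maternal values were close together and the paternal ones spread over a wide range, with replicate 3 near the maternal level. The log2 difference was 1.30 ± 0.42, or 2.46-fold, and 1.76 without paternal replicate 3. Zbtb16, a transcription factor induced by glucocorticoids, stood at 4402, 5590 and 6134 against 3369, 2105 and 3137 (log2 0.92 ± 0.31). Pnpla3, a lipase of lipid droplets, stood at 134, 195 and 174 against 78.4, 71.9 and 95.5 (log2 1.02 ± 0.29). For both genes all 3 maternal libraries were well above the paternal ones, and paternal replicate 3 was not the lowest. Cacna1i, a T-type calcium channel, averaged 114 ± 13.3 against 63.2 ± 22.9. Tmem266 (658 in maternal replicate 3 against 213 and 258 in the others), Rgl3 and the myelin gene Ncmap completed the higher side with Gbp3 and 4 genes led by 1 library.

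Those 4 were Asl, Pgrmc1, Rarres2 and Ahcy, and each was highest in maternal replicate 2, the library with 5375 hepatocyte CPM. Asl, the urea cycle enzyme argininosuccinate lyase, stood at 294, 980 and 460 in maternal and 225, 243 and 283 in paternal libraries. Pgrmc1, a haem-binding membrane protein, stood at 186, 669 and 220 against 164, 162 and 156. Replicates 1 and 3 were only slightly above the paternal range in Pgrmc1. Rarres2, the secreted chemoattractant chemerin, averaged 189 ± 85.7 against 96.6 ± 18.3, and Ahcy, which breaks down S-adenosylhomocysteine, 398 ± 262 against 194 ± 20.8. Without the libraries over 100 hepatocyte CPM their log2 differences went from 1.03 to 0.17 (Asl), 0.91 to 0.23 (Pgrmc1), 0.88 to 0.46 (Rarres2) and 0.85 to 0.25 (Ahcy). Pnpla3 and Rgl3, also highest in maternal replicate 2, went from 1.02 to 0.69 and from 0.93 to 0.60, and Zbtb16 from 0.92 to 0.78. Ncmap went from 0.84 to 0.13 and Tmem266 from 1.20 to 0.65, whereas Depp1 had 1.33, Cacna1i 0.94 and Gbp3 1.40 in that fit. Only replicate 1 of the maternal group is in it.

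On the lower side, Lzts1, a leucine zipper protein (chromosome 8, 69132669 to 69184225), stood at 37.3, 14.9 and 18.4 in maternal and 54.4, 43.6 and 52.2 in paternal libraries, a log2 difference of -1.16 ± 0.35. Klf2, a transcription factor known from endothelium under flow, stood at 378, 304 and 184 against 506, 483 and 548 (log2 -0.89 ± 0.28). The maternal values of Klf2 spread widely below the paternal ones, which were close together. Nedd9, a scaffold protein of focal adhesions, stood at 98.7, 100.2 and 113 against 222, 214 and 121, with only paternal replicate 3 near the maternal values. The others were Fbxo33, Fcf1, Galnt7, Trmt5, Aif1l, Kcnn3 (a calcium-activated potassium channel), Yod1 (a deubiquitinase), Zbtb1 and the non-coding Cep83os, with log2 differences of -0.82 to -0.70. Maternal replicate 3, which had the fewest detected genes, was the lowest library in 9 of these 12, and in 290 of all 430 genes that were lower without overlap. It was also the highest in 334 of the 539 that were higher without overlap. In the fit without the libraries over 100 hepatocyte CPM, which leaves out maternal replicates 2 and 3, Lzts1 had -0.35, Klf2 -0.44, Trmt5 -0.16, Fbxo33 -0.15 and Zbtb1 -0.13, while Nedd9 had -0.70. Without maternal replicate 3 alone Klf2 had -0.59, Fcf1 -0.43, Trmt5 -0.32 and Fbxo33 -0.43. Its lower number of detected genes moves with these values, and the part of it in them was not tested.

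**Figure D3:**
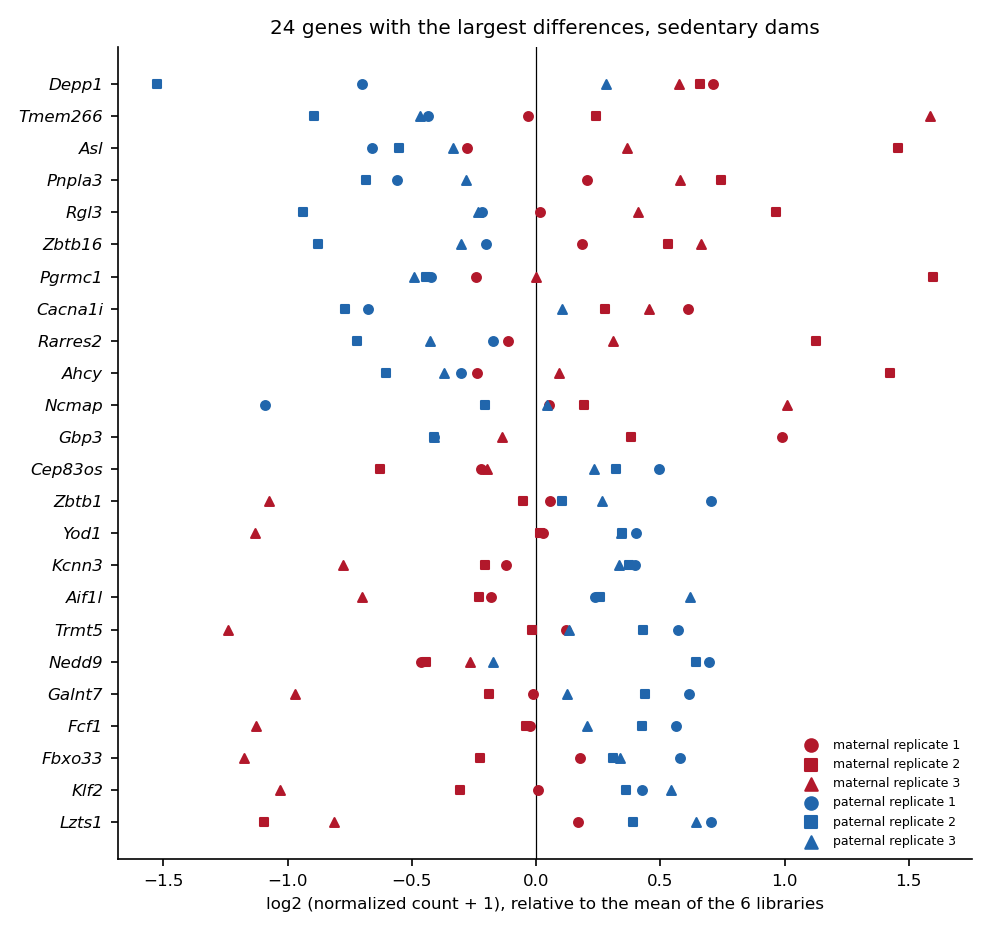
Log2 normalized counts (plus 1) of 24 genes in the 6 sedentary libraries, each shown relative to the mean of the 6; red, maternal; blue, paternal; circles, squares and triangles are replicates 1, 2 and 3. Red squares stand far to the right for Asl, Pgrmc1, Rarres2 and Ahcy, and red triangles far to the left for most of the genes that were lower.

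No muscle fibre gene passed the test. Myh4, the myosin heavy chain of the fastest fibres, averaged 2522340 normalized counts in maternal and 1970270 in paternal libraries (SD 344312 and 373372), a log2 difference of 0.37 ± 0.24 without overlap. Myh1, Myh2 and Myh7, the myosins of the other fast and the slow fibres, had -0.07 ± 0.27, 0.19 ± 0.26 and 0.15 ± 0.57, all with overlap. Of 17 fast fibre genes 14 had higher maternal means (median 0.14), and of 14 slow fibre genes 7 (median -0.02). The slow fibre median was 0.14 without maternal replicate 3 and -0.24 without paternal replicate 3. It was 0.40 (14 of 14 higher) without the libraries over 100 hepatocyte CPM, where the fast fibre median was -0.01. This last fit keeps only maternal replicate 1 in its group. Myh4 was the only fast fibre gene whose groups did not overlap, and no slow fibre gene was without overlap. Myogenic and satellite cell genes had higher means in 5 of 16 (median -0.14). At the neuromuscular junction the 2 sides differed: Rapsn, which clusters acetylcholine receptors, stood at 561, 562 and 739 against 400, 442 and 540, without overlap (log2 0.43 ± 0.16). Chrna1, the receptor's alpha subunit, stood at 436, 538 and 328 against 478, 622 and 612, with overlap (log2 -0.41 ± 0.18). Colq, the collagen tail of acetylcholinesterase, averaged 246 ± 31.9 against 312 ± 49.7, lower without overlap.

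Genes of glucose and fat use mostly overlapped between the 2 groups. Slc2a4, the insulin-responsive glucose transporter GLUT4, stood at 14236, 13046 and 15225 in maternal and 12023, 11204 and 15267 in paternal muscle, and Irs1, which relays the insulin signal, at 1010, 1109 and 1536 against 1013, 756 and 804. Both overlapped, with log2 differences of 0.15 ± 0.15 and 0.49 ± 0.27. Ppargc1a, the coactivator PGC-1alpha that drives mitochondrial genes, stood at 522, 703 and 783 against 788, 720 and 392. Its mean was higher in the maternal group by a log2 of 0.12 ± 0.33, with the lowest value in paternal replicate 3, and it took the other sign (-0.19) without that library. Cs, the citrate synthase often used as a measure of mitochondria, differed by 0.01 ± 0.09, Pdk4, the kinase that shuts glucose out of the mitochondrion, by -0.02 ± 0.22, and Ucp3, a mitochondrial carrier, by 0.27 ± 0.23. Of 26 glycolysis and glycogen genes 19 were higher (median 0.16), and 3 were higher without overlap, which held for 3.99% of all genes. They were Hk2 (hexokinase), Gys1 (glycogen synthase) and Pfkfb3 (which makes an activator of glycolysis), at log2 0.16, 0.18 and 0.25. None of the 26 had an unadjusted p under 0.05 in limma, and with exercised dams 7 had a higher maternal mean (median -0.07). Of 30 fatty acid genes 15 had higher means, with a median of -0.0013. Acads, which begins the oxidation of short-chain acids, averaged 3245 ± 508 against 2559 ± 405 and overlapped. Agpat2, an enzyme of triglyceride synthesis, stood at 225, 504 and 242 against 242, 175 and 166, with the high value in maternal replicate 2. Adipocyte genes were higher in 11 of 13 (median 0.31), but Fabp4, a fatty acid carrier of fat cells and small vessels, had -0.37 ± 0.16. The adipocyte median was 0.08 without maternal replicate 3 and turned to -0.45, with 3 of 13 higher, without the libraries over 100 hepatocyte CPM. Of the maternal libraries, the latter fit keeps only replicate 1.

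Transcripts of the mitochondrial genome had lower maternal means in all 9 that were tested, by a median log2 of -0.53, and all overlapped. Their sum was 682704, 587222 and 270301 in maternal and 873305, 857932 and 421818 in paternal libraries. Replicate 3 was the lowest of its group in both, and replicates 1 and 2 of the maternal group lay below those of the paternal group. The median was -0.11 without maternal replicate 3, -0.89 without paternal replicate 3, and 0.17 without the 3 libraries over 100 hepatocyte CPM. Of the maternal libraries, the last fit keeps only replicate 1. Among nuclear genes of the respiratory chain, complex I had 23 of 37 higher (median 0.04) and complexes II to V 25 of 43 (median 0.02). Ndufb4, a complex I subunit, averaged 122 ± 24.5 against 167 ± 36.1, and Atp5d, a subunit of ATP synthase, 9977 ± 1233 against 8126 ± 1583, each with overlap. Gpx3, the selenoprotein that reduces peroxides outside cells, stood at 9844, 9593 and 10469 against 7110, 7212 and 8934 without overlap (log2 0.37 ± 0.12).

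The constitutive proteasome, which most cells use for protein turnover, lay on the other side from the immunoproteasome genes. Of 31 subunits 22 had lower maternal means (median -0.09), and 4 were lower without overlap (Psma5, Psmb7, Psmc2 and Psmd1), which held for 3.19% of all genes. With exercised dams 5 of the 31 were lower without overlap, which held for 3.94% of all genes in that comparison. Psma5, a subunit of the core's outer ring, stood at 531, 531 and 523 against 645, 613 and 653, a log2 difference of -0.27 ± 0.09 with little spread in either group. Among the ubiquitin ligases of muscle wasting, Trim63 (MuRF1) stood at 50428, 44321 and 48107 against 28891, 21955 and 56876, and Fbxo32 (atrogin-1) differed by -0.05 ± 0.23. Trim63 overlapped because paternal replicate 3 was the highest of all 6 libraries, the library that was also highest of its group for Depp1. Of 18 glucocorticoid and fasting genes 17 had higher maternal means, with a median of 0.18. It was 0.38 without paternal replicate 3 and 0.05 (12 of 18 higher) with libraries scaled to their totals. With that scaling the median of all genes was -0.11. Zbtb16 alone did not overlap, and Klf15, a transcription factor of amino acid use, stood at 3572, 2793 and 3376 against 1960, 2048 and 3596.

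Among secreted regulators, Fst, the follistatin that binds myostatin and activin (chromosome 13, 114452290 to 114458951), stood at 46.6, 36.9 and 29.2 in maternal and 60.6, 65.4 and 47.2 in paternal libraries, lower without overlap (log2 -0.62 ± 0.22). Mstn, myostatin itself, stood at 1013, 655 and 391 against 805, 762 and 647, and the maternal libraries lay on both sides of the paternal ones. Imprinted genes, which are read from the copy of 1 parent, were lower in 21 of 29 (median -0.10). Of the 29, 4 were lower and 1 was higher without overlap, which held for 3.19% and 3.99% of all genes. An unadjusted p under 0.05 in limma was reached by 1, Airn. With exercised dams 23 of the 29 had a higher maternal mean (median 0.14), and 0 were lower without overlap. Igf2, a growth factor read from the paternal copy, stood at 442, 496 and 452 against 501, 578 and 807, lower without overlap by a narrow gap (log2 -0.41 ± 0.21, and -0.22 without paternal replicate 3). Its neighbour H19, read from the maternal copy, differed by -0.08 ± 0.21. Igf2r, which clears IGF2 and is read from the maternal copy, averaged 2995 ± 83.6 against 2680 ± 91.6, higher without overlap. Mest, Impact and Zdbf2, all read from the paternal copy, were lower without overlap, at a mean of 24.3, 263 and 6.97 against 40.2, 348 and 12.3. Airn, a non-coding RNA read through Igf2r, averaged 71.5 ± 17.6 against 104 ± 29.1 and overlapped. None of these reached an adjusted p below 0.663. Dnmt3b, a DNA methyltransferase, was low at 30.7, 25.5 and 19.5 against 27.6, 12.9 and 25.6, and Ehmt2, a histone methyltransferase, averaged 1701 ± 328 against 1355 ± 247.

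Of the remaining lists with more than 1 tested gene, medians lay between -0.07 (tendon genes) and 0.21 (Schwann cell genes, 11 of 14 higher), beside the 0.01 of all genes. Several turned sign with the libraries used: the tendon median was 0.33 without paternal replicate 3 and -0.52 without the libraries over 100 hepatocyte CPM. The Schwann median was -0.08 in the latter fit, which keeps only replicate 1 of the maternal group. Endothelial genes had 11 of 20 higher (median 0.03), with Eng, a TGF-beta coreceptor, at 1509, 1755 and 1931 against 1492, 1327 and 1495. Collagen and fibroblast genes had 12 of 25 higher (median -0.03), and 21 of 25 (0.15) without paternal replicate 3. Col18a1, the collagen that yields endostatin, stood at 267, 1518 and 493 against 250, 267 and 357, high in maternal replicate 2, and had -0.21 without the libraries over 100 hepatocyte CPM. Ribosomal protein genes had 47 of 76 higher means (median 0.09), with Rpl36 at 2791 ± 702 against 2084 ± 336.

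**Figure D4:**
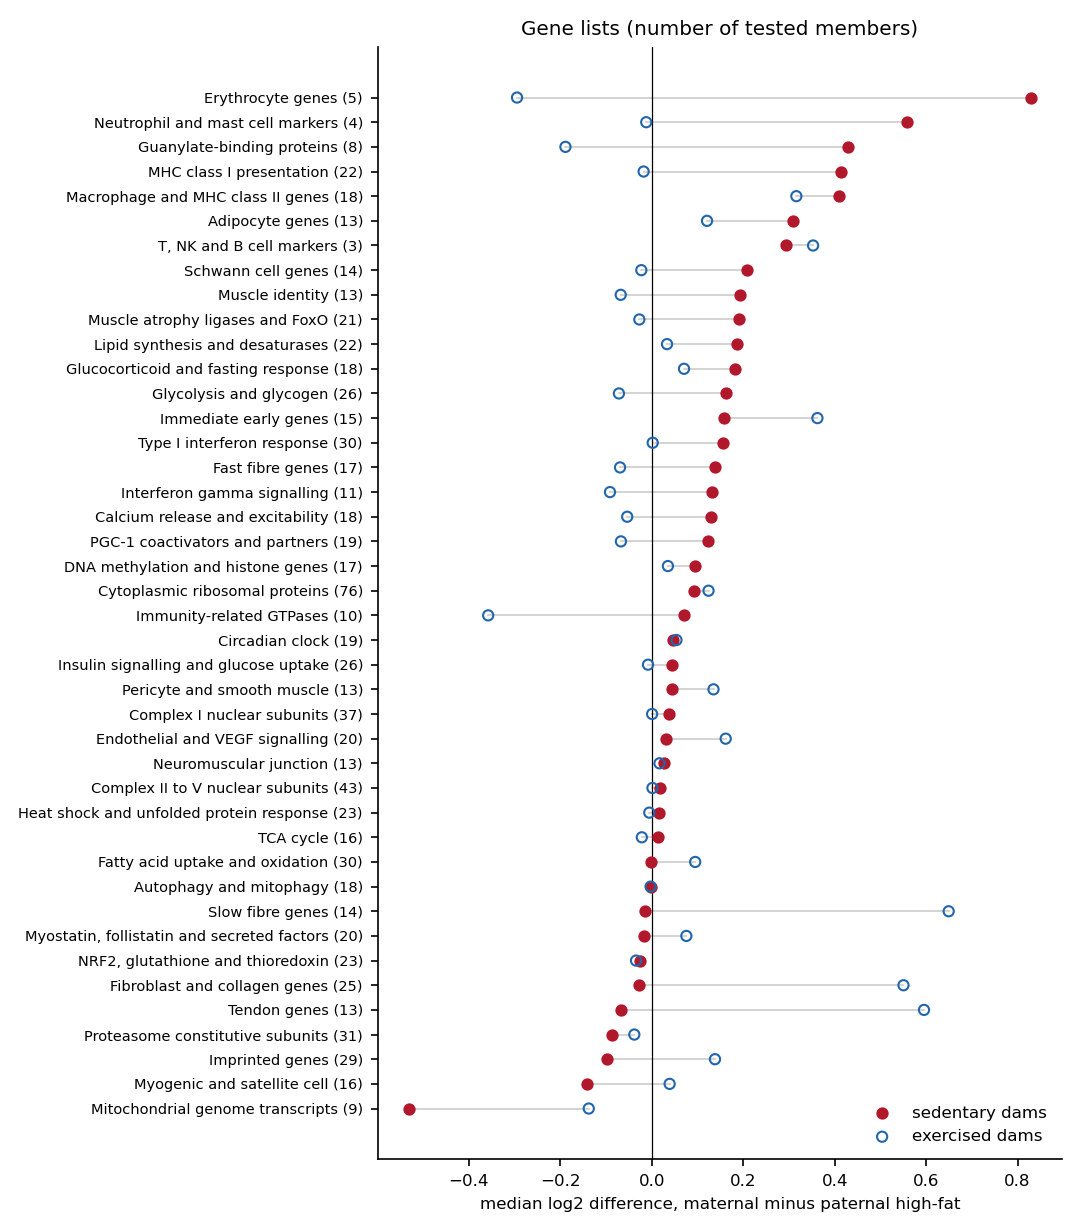
Median log2 difference, maternal minus paternal high-fat, of 42 gene lists, in offspring of sedentary dams (filled) and exercised dams (open); the number of tested genes is in brackets. The hepatocyte list (median 3.80) and a list with 1 tested gene are left out. Class I presentation lies at 0.41 for sedentary and -0.02 for exercised dams, and mitochondrial genome transcripts at -0.53 and -0.14.

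The same parental comparison in offspring of exercised dams shares no library with the one above. There too limma called 0 of 13499 genes (0%), while 265 (1.96%) had an unadjusted p under 0.05 and a lowest adjusted p of 0.999951; edgeR and limma voom also called 0 and DESeq2 called 1, Myh3 (embryonic myosin), named here because of that call. For 6559 genes (48.6%) the maternal mean was higher, and the values did not overlap for 559 higher (4.14%) and 532 lower (3.94%) genes, 1091 in all (8.08%). Across genes the 2 sets of log2 differences had a Pearson's r of -0.06, and genes are not independent. Of the 539 genes higher without overlap with sedentary dams, 319 (59.2%) had a higher maternal mean with exercised dams, where 48.6% of all genes did. Of the 430 lower ones, 233 (54.2%) had a lower mean, where 51.4% of all genes did. Without overlap in both comparisons, 34 of the 13499 genes were higher in both and 24 were lower in both. Another 16 were higher with sedentary and lower with exercised dams, and 16 the reverse. Eng was among the 34 and Trmt5 among the 24.

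For class I presentation with exercised dams, 8 of 22 genes had a higher maternal mean, the median was -0.02, 0 were higher without overlap and 1 was lower. H2-K1 stood at 1578, 1902 and 2029 normalized counts with a high-fat mother and at 2010, 1769 and 1879 with a high-fat father. Bst2 stood at 97.7, 94.7 and 124 against 143, 121 and 108, and Psmb9 at 26.5, 47.4 and 60.8 against 68.1, 44.8 and 51.0. In all 3 genes the exercised groups overlapped, and every exercised library was below the lowest maternal library with sedentary dams. The difference between the 2 comparisons was tested in the same fit: 0 genes (0%) had an adjusted p under 0.05, the lowest was 0.996, and 274 had an unadjusted p under 0.05 (2.03%), 120 of them positive (0.889%) and 154 negative (1.14%). Among class I genes 9 of 22 were at an unadjusted p under 0.05, all positive. The class I genes and those named next were described for their sedentary values, which enter this difference, so its sign was partly set beforehand. Of the 539 genes higher without overlap with sedentary dams 493 had a positive difference, and of the 430 lower ones 26 did. For Bst2 the difference was 0.97 ± 0.22, for H2-K1 0.68 ± 0.20 and for Psmb9 1.10 ± 0.40, each with an adjusted p of 0.996. Negative differences included Klf2 (-1.44 ± 0.39) and Fst (-1.25 ± 0.31). Fst stood at 69.2, 58.3 and 58.6 with an exercised high-fat mother and at 38.6, 43.6 and 36.5 with a high-fat father, higher without overlap, the opposite of its order with sedentary dams. Of the 12 most lower genes above, 9 had a higher maternal mean with exercised dams.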

How the data were processed

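RNA was extracted from quadriceps with TRIzol and sequenced as ribosomal-RNA-depleted, stranded, single-end libraries, per the labels' protocols. The submitters' processing notes name STAR 2.5.2b, featureCounts 1.5.2, DESeq2 1.11.8 and the mm10 build, without giving their roles. The deposited table holds the authors' normalized counts (a signal: reads divided by a size factor of each library) for 50686 genes. Their IDs were matched to GENCODE M21 names for 50462 (99.6%). In 14 of 15 columns all values were whole multiples of 1 read within a tolerance of 0.001, and reads were recovered from them.

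Genes with a mean of at least 10 over 15 libraries were tested with limma 3.58.1 (R 4.3.3, trended variance) after adding a pseudocount of 1 and taking log2, in 1 fit over the 12 high-fat libraries, with Benjamini-Hochberg adjustment over all genes and a threshold of 0.05. The maternal minus paternal difference was fitted for sedentary dams, for exercised dams, and as the difference between them. Recovered reads were tested with edgeR 4.0.16, DESeq2 1.42.0 and limma voom, and called 0 genes for sedentary dams. The fits were checked on simulated data. Other alternatives were pseudocounts of 0.5 and 5, no filter or a mean of 50, other scalings, other sets of libraries, each library left out, and a hepatocyte score as covariate. Leaving out replicate 3 of both sedentary groups was chosen after seeing the data.

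Genes named by rule were the 12 largest differences in each direction (unadjusted p under 0.05, mean of at least 50 in a group, no overlap, no predicted-gene name, not a hepatocyte gene), the smallest p under 0.05 of each list in each direction, and a fixed set of metabolic, fibre and interferon genes. Other list members are named to describe their list, after their values were seen. The members and the 44 lists were chosen with earlier results of these data known. Control libraries were compared with nothing here.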

Additional observations from a re-analysis of the deposited data

How the results depend on the processing

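For sedentary dams 0 genes passed under each of the 27 alternatives, and no named gene passed in any. For exercised dams DESeq2 alone called 1 gene. Of 64 named genes, 12 changed sign in 30 of 1717 gene and alternative pairs, and the cause was not tested. List medians changed sign in 87 of 1186 list and alternative pairs. The fit without the 3 libraries over 100 hepatocyte CPM keeps only replicate 1 of the maternal group. In it the log2 difference was -0.21 for Col18a1, -0.026 for Ppargc1a, 0.13 for Pdk4 and -0.19 for Ucp3. In the same fit the log2 difference was 0.27 for Fbxo32, 0.53 for Mstn and 0.057 for Myh1. With the hepatocyte score as covariate it was -0.25 for Ppargc1a, 0.025 for Fbxo32, 0.11 for H19 and -0.25 for Alb. Without replicate 3 of both groups it was -0.31 for Ppargc1a, 0.22 for Fbxo32, 0.057 for Mstn and 0.061 for H19. Scaled to library totals, where the median of all genes was -0.11, the log2 difference was -0.0043 for Ppargc1a and -0.11 for Cs. Leaving out each library in turn, it ranged from -0.19 to 0.31 for Ppargc1a, -0.014 to 0.053 for Cs, -0.13 to 0.16 for Pdk4, -0.20 to 0.14 for Fbxo32, -0.54 to 0.15 for Mstn, -0.0050 to 0.33 for Myh7, -0.096 to 0.42 for Dnmt3b and -0.18 to 0.11 for H19. Genes at an unadjusted p under 0.05 (726) numbered 1497 with no filter on low genes (more genes tested), 1412 without maternal replicate 1, 227 without maternal replicate 3, 397 without paternal replicate 1, 254 without paternal replicate 2, 3189 without paternal replicate 3, 103 without the libraries over 100 hepatocyte CPM, 1786 without replicate 3 of both groups and 292 in a fit of the 6 libraries alone. No paired analysis was possible because the labels number no replicates and pair no animals. With 3 libraries in each group, their number limits what can be called.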
